A study of Danio rerio with 12 samples.

Results

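The *slc25* genes encode the mitochondrial carrier family, and their transcripts were examined here in zebrafish embryos after repeated heat, after contact with the medium of heat-stressed embryos, and after both. The family was taken as every gene ID whose zebrafish symbol starts with slc25, whatever its case. This gave 59 of the 32520 gene IDs in the count tables, of which 50 passed the filter on low counts and were tested. Whole embryos of the wild-type AB line were sequenced at 1 dpf, after 24 h alone in a tube in the dark. The treatments were TS + SM (stress medium and heat), TS (fresh medium and heat), SM (stress medium at a constant 27°C) and C (fresh medium at 27°C), with 3 pools of 20 embryos in each. Heat was 19 cycles in which the temperature climbed to 32°C and came back to 27°C, with 15 min at each step. Stress medium was collected the day before from embryos put through the same heat cycles, so SM holds whatever those embryos released. Each pool mixes all tissues of 20 animals, and which tissue a transcript came from was not measured.

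Mitochondrial carriers are nuclear-encoded proteins of the inner mitochondrial membrane that swap or move small molecules between the cytosol and the matrix. The ADP/ATP carriers export ATP in exchange for ADP, the phosphate carrier supplies the phosphate from which ATP is made, and other members carry amino acids, di- and tricarboxylates, acylcarnitines, nucleotides, vitamins and cofactors, and iron. In vertebrates several carriers have tissue-biased forms, the best known being *SLC25A4*, the ADP/ATP carrier of mammalian heart and skeletal muscle, beside *SLC25A5*, which prevails in dividing cells.

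The libraries held 18764434 to 60239167 counts on genes (median 24659757.5), and the deepest was TS + SM replicate 1. The *slc25* genes together took 0.605% to 0.640% of the counts in the TS + SM libraries, 0.629% to 0.655% in TS, 0.537% to 0.587% in SM and 0.592% to 0.615% in C. Most of these counts fell on *slc25a5*, with 58.7% to 76.0% of the family total in a library. Levels are given as CPM, counts per 1000000 counts of the effective library size from the TMM method. They are compared between libraries and not between genes, since transcript lengths were not used here. The *slc25* genes summed to 5615 to 8175 CPM in TS + SM, 5135 to 7106 CPM in TS, 5552 to 6144 CPM in SM and 5019 to 6115 CPM in C. On this scale SM and C overlapped, although the SM shares of raw counts lay below those of C. LFC is the log2 fold change, and *P*-adj is the *P* value of edgeR's quasi-likelihood test after Benjamini-Hochberg adjustment over the 18688 genes tested. Markers of muscle, blood, heart, yolk, nervous system and epidermis were found in all 4 treatments, apart from 1 slow-muscle troponin gene (*tnni1*) that stayed at or below 3 counts.

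In the edgeR fit 1 carrier transcript differed between heated and unheated embryos at the adjusted threshold, and the others did not pass it. With both media averaged (TS + SM and TS against SM and C), 1 of 50 members had a *P*-adj of 0.05 or less (2%, against 0.851% of all genes tested), and this was a rise of *slc25a4*. The 49 other members spread evenly about zero. Over the 50 members, 25 had an LFC above 0 and 25 below it, with a median of -0.01 for the family and -0.0027 for all genes. For 25 members the 95% interval of the LFC lay within ±0.58, a change of 1.5-fold, and for 37 within ±1, so a 2-fold change lay outside it, while for 13 members, *slc25a4* among them, the interval reached past ±1.

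*slc25a4* (ENSDARG00000027355) encodes an ADP/ATP carrier, and its transcripts were several times more abundant in heated embryos. It had 32.8, 22.7 and 29.9 CPM in TS + SM replicates 1 to 3, and 29.5, 25.0 and 48.4 CPM in TS. It had 4.08, 9.91 and 7.74 CPM in SM, and 5.70, 4.67 and 7.35 CPM in C. Every heated library lay above every library kept at 27°C, with a gap between 9.91 and 22.7 CPM. The mean was 31.4 ± 9.10 CPM with heat and 6.57 ± 2.18 CPM at 27°C (SD, n = 6 each), and the LFC was 2.25 (SE 0.24, 95% interval 1.74 to 2.77, *P*-adj = 0.00120 from edgeR), a 4.77-fold difference. These values rest on 468 to 1878 counts in each heated library and 70 to 222 in each unheated one. In RNA from whole embryos, more cells of a type and more RNA per cell cannot be told apart.

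**Figure D1:**
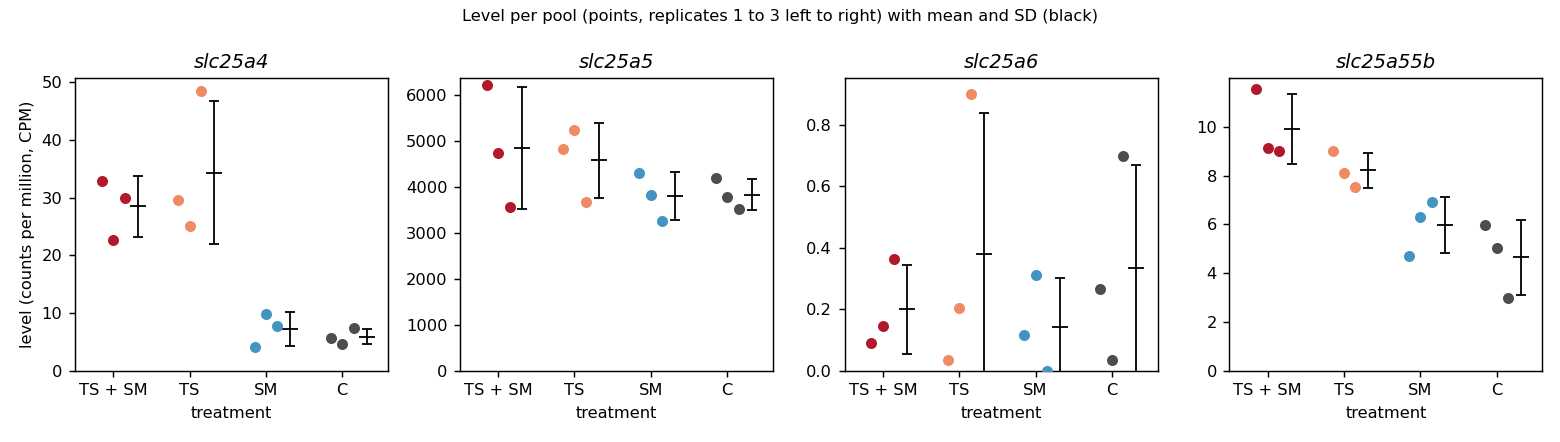
Level in CPM (vertical axes, each starting at 0) of the 3 ADP/ATP carrier genes and of *slc25a55b* in the 12 pools, by treatment. Colored points are pools, black bars the mean and SD of 3 pools. The 6 heated pools of *slc25a4* sit between 22.7 and 48.4 CPM and the 6 others between 4.08 and 9.91 CPM, whereas the heated and unheated pools of *slc25a5* and *slc25a6* overlap.

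The rise of *slc25a4* was present in each medium. Its LFC was 2.54 in TS vs. C (SE 0.34, *P*-adj = 0.0158 from edgeR) and 2.27 in TS + SM vs. C (SE 0.33, *P*-adj = 0.0209), comparisons that share the C libraries. TS + SM vs. SM has no library in common with TS vs. C but shares the TS + SM libraries with TS + SM vs. C. There the *slc25a4* LFC was 1.97 (SE 0.33, 95% interval 1.24 to 2.69) and missed the threshold in edgeR with *P*-adj = 0.0552, while DESeq2 called it. The heat effects in the 2 media were not shown to differ, since the interaction had an LFC of -0.57 with a 95% interval from -1.57 to 0.42 (*P*-adj = 1.00). Medium alone left *slc25a4* with overlapping groups, at an LFC of 0.30 in SM vs. C (95% interval -0.42 to 1.02) and of -0.27 in TS + SM vs. TS (95% interval -0.96 to 0.41). For heat averaged over both media the call held with each of the 12 libraries left out in turn, with *P*-adj from 0.00104 to 0.00742 and LFCs from 2.11 to 2.40. The single comparisons were less firm: the call in TS vs. C was lost without C replicate 1 (*P*-adj = 0.0699) or C replicate 2 (0.164), and with only the 6 libraries compared in the fit (0.128). The call in TS + SM vs. C was lost without TS + SM replicate 1 (0.0882), TS + SM replicate 2 (0.0523), C replicate 1 (0.0949) or C replicate 2 (0.174), and with only the 6 libraries compared (0.0557). Fewer of all genes were called in these fits too, with 9, 7 and 0 in TS vs. C against 18 in the main fit. In TS + SM vs. C these were 11, 12, 17, 5 and 2, against 32. Without TS replicate 1 or 2, 8 of all genes were called in TS vs. C, and the call on *slc25a4* held.

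Transcripts of fast skeletal muscle moved in the same direction as *slc25a4*. Of 13 fast-muscle marker genes tested, 13 had an LFC above 0 for heat (range 0.15 to 1.44, median 0.77) and 2 rose at a *P*-adj of 0.05 or less, the myosin heavy chain gene *myhz2* (LFC 1.01, *P*-adj = 0.0256) and the calsequestrin gene *casq1* (ENSDARG00000038716, LFC 1.44, *P*-adj = 0.00250). At an unadjusted *P* up to 0.05, 12 of the 13 were higher, against 9.36% of all genes in either direction. Their summed level ran from 7825 to 13083 CPM in TS + SM, 9553 to 14880 CPM in TS, 6003 to 6815 CPM in SM and 7060 to 9462 CPM in C, and none was at 0 counts in any treatment. Divided by that sum, *slc25a4* stood at 2.95, 2.89 and 2.29 CPM per 1000 CPM of fast-muscle markers in TS + SM and at 2.68, 2.62 and 3.25 in TS. The quotient was 0.679, 1.45 and 1.19 in SM and 0.603, 0.661 and 0.990 in C. The quotient thus did not overlap between heated and unheated libraries, with means of 2.78 ± 0.33 and 0.930 ± 0.343 (SD, n = 6 each). The marker sum, with means of 11245 CPM with heat and 7208 CPM at 27°C, differed less than *slc25a4* did. That alone makes the quotient higher with heat, so the quotient is no test of the part of muscle content. The summed markers were also higher with heat within each medium, with no overlap of TS + SM with SM or of TS with C, and overlapped only across media (TS + SM against C). Slow-muscle markers (0 of 7 higher, 0 of 7 lower, median LFC 0.21) and heart markers (0 of 7 and 0 of 7, median 0.05) gave no calls in edgeR. At an unadjusted *P* up to 0.05, 1 of 7 and 3 of 7 were higher. The LFCs ran from -0.38 to 0.47 for slow muscle and from -0.05 to 1.53 for heart, which reached above every fast-muscle marker. Markers of the nervous system also moved upward, with 7 of 7 LFCs above 0 (range 0.09 to 0.46). Of these, 0 were called and 1 was higher at an unadjusted *P* up to 0.05. Epidermis markers had 3 of 5 LFCs above 0 (median 0.04, range -0.77 to 0.13), with 0 called and 1 lower at an unadjusted *P* up to 0.05. Yolk markers had 3 of 6 above 0 (median 0.03, range -0.19 to 0.55), with 0 called and 0 at such a *P*. Genes of the presomitic mesoderm and segmentation clock fell, 6 of 9 at a *P*-adj of 0.05 or less (median LFC -2.08), against 0.851% of all genes in either direction. The paper had already reported *mespab*, *her1*, *her7*, *ripply2* and *tbx6* from this list as lowered by heat in these same libraries. The count of calls on the list is therefore no independent result. *myhz2*, among the fast-muscle calls, was likewise reported there as raised. Summed levels of the 9 presomitic and segmentation genes were 49.9 to 116 CPM in TS + SM, 58.7 to 93.9 CPM in TS, 97.6 to 165 CPM in SM and 87.3 to 114 CPM in C. The paper staged embryos given these treatments and found heated ones further developed than C at 1 dpf. It states that its design had no stage-matched controls to separate heat stress from faster development. Heated and unheated pools were thus compared at the same age and not at a matched stage. The part of fast-muscle content or of developmental stage in the level of *slc25a4* was not tested.

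**Figure D2:**
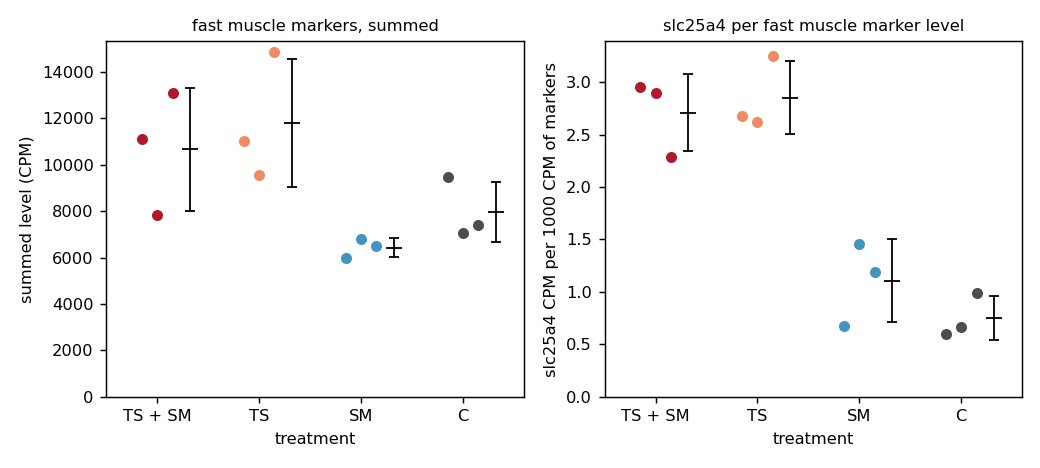
Left, summed level of 13 fast-muscle marker genes in CPM; right, *slc25a4* in CPM per 1000 CPM of those markers, for the 12 pools by treatment (points), with mean and SD of 3 pools (black). The marker sums of heated pools lie above those of unheated pools within each medium and overlap only across media, and the quotients lie between 2.29 and 3.25 with heat and between 0.603 and 1.45 without it.

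The other ADP/ATP carriers did not pass the test. *slc25a5* (ENSDARG00000092553) had 6214, 4738 and 3571 CPM in TS + SM and 4835, 5247 and 3673 CPM in TS. It had 4301, 3827 and 3269 CPM in SM and 4184, 3787 and 3517 CPM in C. Heated libraries reached higher but the groups overlapped, and the LFC for heat was 0.30 (95% interval -0.08 to 0.69, *P*-adj = 0.705). *slc25a6* (ENSDARG00000005853), the third ADP/ATP carrier, was barely counted, with 92 counts in all 12 libraries and 0 to 0.902 CPM. Its LFC for heat was 0.32 with an interval from -1.56 to 2.21, so neither a large rise nor a large fall could be seen at this depth, and its direction turned without TS replicate 3 or without TS + SM replicate 3. Of all counts on the 3 ADP/ATP carriers, *slc25a4* took 0.525%, 0.476% and 0.831% in TS + SM, 0.607%, 0.475% and 1.3% in TS, 0.0947%, 0.258% and 0.236% in SM, and 0.136%, 0.123% and 0.208% in C. It therefore stayed a small part of the ADP/ATP carrier counts with heat as without it, although its share in every heated library was above that in every unheated one.

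The mitochondrial phosphate carrier is listed under 2 gene IDs with the symbol *slc25a3*, and neither was called for heat. ENSDARG00000025566 had 557 to 801 CPM with heat and 557 to 678 CPM at 27°C, with an LFC of 0.16 (95% interval -0.12 to 0.44, *P*-adj = 0.868). ENSDARG00000027424 was at 2.78, 2.18 and 3.46 CPM in TS + SM, 2.59, 3.00 and 1.13 CPM in TS, 1.46, 2.19 and 3.27 CPM in SM and 1.63, 1.57 and 1.01 CPM in C. Its 3 TS + SM libraries lay above its 3 C libraries, with an LFC of 1.00 in TS + SM vs. C (unadjusted *P* = 0.0335, *P*-adj = 0.713), but for heat overall the groups overlapped (LFC 0.47, 95% interval -0.16 to 1.11).

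*slc25a55b* (ENSDARG00000013749) came closest to *slc25a4* without passing. It had 11.6, 9.15 and 9.0 CPM in TS + SM and 8.99, 8.13 and 7.55 CPM in TS. It had 4.72, 6.30 and 6.91 CPM in SM and 5.97, 5.03 and 2.97 CPM in C. Its 6 heated libraries were above its 6 unheated ones in each medium. The LFC was 0.77 for heat (SE 0.17, 95% interval 0.39 to 1.16, unadjusted *P* = 0.000846, *P*-adj = 0.0736), 0.82 in TS vs. C (unadjusted *P* = 0.00630), 0.73 in TS + SM vs. SM (0.0123) and 1.09 in TS + SM vs. C (unadjusted *P* = 0.000897, *P*-adj = 0.168). DESeq2, the other tool run, called it for heat (*P*-adj = 0.00484) and in TS + SM vs. C (0.00854), and over all alternatives its *P*-adj for heat ran from 0.00484 to 0.191. The paralog *slc25a55a* (ENSDARG00000020893), which RefSeq lists with *slc25a22* as a synonym, did not follow it. *slc25a55a* had 414, 499 and 814 CPM in TS + SM, 501, 458 and 221 CPM in TS, 520, 506 and 1013 CPM in SM, and 628, 646 and 372 CPM in C. Its extremes were single pools, SM replicate 3 and TS replicate 3, and its LFC for heat was -0.36 (95% interval -0.96 to 0.24).

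Carriers that serve heme synthesis had heat LFCs below 0 or near it, and none was called. *slc25a37*, mitoferrin 1, brings iron into the mitochondria of developing red blood cells, and it had 1.14, 0.678 and 0.773 CPM in TS + SM and 1.07, 1.02 and 1.78 CPM in TS. It had 2.79, 1.34 and 1.49 CPM in SM and 1.71, 1.39 and 1.96 CPM in C. The TS + SM libraries were all below the SM and C libraries, while TS overlapped C. The LFC was -0.73 for heat (95% interval -1.34 to -0.13, unadjusted *P* = 0.0210, *P*-adj = 0.374) and -1.09 in TS + SM vs. SM (unadjusted *P* = 0.0176, *P*-adj = 0.617), so it was not called. *slc25a28*, mitoferrin 2, the form of other tissues, was at 38.2 to 62.9 CPM with heat and 38.9 to 69.7 CPM at 27°C, with an LFC of 0.01 whose sign turned under several alternatives. *slc25a38* imports glycine, the starting material of heme, and is listed under 2 gene IDs. For ENSDARG00000074533 the values were 7.74, 6.39 and 7.73 CPM in TS + SM, 7.04, 7.98 and 7.35 CPM in TS, 9.14, 9.96 and 8.23 CPM in SM, and 8.29, 8.02 and 9.93 CPM in C. All heated libraries lay below all unheated ones, by a small amount and with a narrow gap between 7.98 and 8.02 CPM, and the LFC of -0.28 did not pass (95% interval -0.52 to -0.03, *P*-adj = 0.435). The other ID, ENSDARG00000059805, overlapped for heat at 2.05 to 4.12 CPM with heat and 1.96 to 3.90 CPM at 27°C (LFC 0.10).

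Beside these carriers, 0 of 11 genes of the heme synthesis pathway were called in edgeR for heat in either direction (median LFC -0.15, 1 lower at an unadjusted *P* up to 0.05). Of 10 erythroid markers 0 were called and 8 had an LFC above 0 (median 0.34), 2 of them higher at an unadjusted *P* up to 0.05. Of all genes, 9.36% had such a *P* in either direction. Summed levels of the erythroid markers were 971 to 1724 CPM in TS + SM, 1225 to 2917 CPM in TS, 828 to 1401 CPM in SM and 887 to 1413 CPM in C. The part of these heme pathway genes and erythroid markers in the levels of *slc25a37* and *slc25a38* was not tested.

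Outside the ADP/ATP carriers, 0 members of any role group were called for heat in edgeR. Counting every member tested, 5 had an unadjusted *P* up to 0.05 (10%, against 9.36% of all genes), namely *slc25a4*, *slc25a55b*, *slc25a37*, *slc25a38* (ENSDARG00000074533) and *slc25a51b*. The last, named here after its values were seen, is one of 2 genes for the mitochondrial NAD+ carrier and had an LFC of 0.36 (95% interval 0.08 to 0.64, *P*-adj = 0.337), with 15.6 to 20.8 CPM with heat and 10.8 to 16.6 CPM at 27°C. Libraries of heated and unheated embryos did not overlap for 3 members (6%, against 2.03% of all genes), of which *slc25a4* and *slc25a55b* were above and *slc25a38* (ENSDARG00000074533) below.

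The carriers of aspartate, glutamate, oxoglutarate, dicarboxylates and citrate, which link the tricarboxylic acid cycle with the cytosol, had a median LFC of 0.00 over the 8 of 12 members tested. Their range was set by the 2 gene IDs of the dicarboxylate carrier *slc25a10*, with -0.24 for ENSDARG00000025074 and 0.63 for ENSDARG00000097890. This depends on the grouping: *slc25a55a*, with *slc25a22* as a synonym, and *slc25a55b* were placed with the outer membrane and orphan members instead. Their heat LFCs of -0.36 and 0.77 lie beyond both ends of this range. The value of ENSDARG00000097890 came from 1 pool, with 6.91 CPM in TS replicate 3 and 0.582 to 3.09 CPM in the other 11 libraries, and was -0.11 without that pool. *slc25a12*, an aspartate/glutamate carrier of the malate-aspartate shuttle, was at 52.3 to 72.7 CPM with heat and 55 to 76.4 CPM at 27°C, and *slc25a11*, the oxoglutarate carrier of the same shuttle, at 39.6 to 56.3 CPM with heat and 38.5 to 54.6 CPM at 27°C. These 2 had heat LFCs of -0.08 and 0.04 with intervals within ±0.58.

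The carriers of other amino acids, carnitine and glutathione, 12 of 14 tested, had a median LFC of -0.18 and ran from -0.31 for *slc25a44* (ENSDARG00000045927), which in mammals carries branched-chain amino acids, to 0.16 for *slc25a48*. The acylcarnitine carrier *slc25a20*, which admits fatty acids to oxidation, had 26.5 to 43.9 CPM with heat and 32.2 to 41.1 CPM at 27°C (LFC -0.17). The glutathione importer *slc25a39* was the steadiest member, with a coefficient of variation between pools of 7.51%, 23.2 to 27.5 CPM with heat and 22.4 to 30.5 CPM at 27°C (LFC -0.08, 95% interval -0.28 to 0.12).

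The carriers of nucleotides, coenzymes and vitamins were all tested, 12 of 12, with a median of 0.10 and a range from -0.19 for the peroxisomal *slc25a17* to 0.66 for the coenzyme A carrier *slc25a42*. The value of *slc25a42* hung on single pools, with 2.22 CPM in TS replicate 3 and 1.68 CPM in C replicate 3, and was -0.10 without TS replicate 3 and 1.53 without C replicate 3. The calcium-regulated ATP-Mg/phosphate carriers and their relatives, 5 of 7 tested, ran from -0.19 for *slc25a24* to 0.09 for *slc25a23a*, with a median of 0.06. The uncoupling protein relatives *slc25a14* and *slc25a27* had -0.22 each, and the outer membrane protein gene *slc25a46*, known for its part in mitochondrial dynamics, was at 7.91 to 12.3 CPM with heat and 7.07 to 14.2 CPM at 27°C (LFC -0.12).

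**Figure D3:**
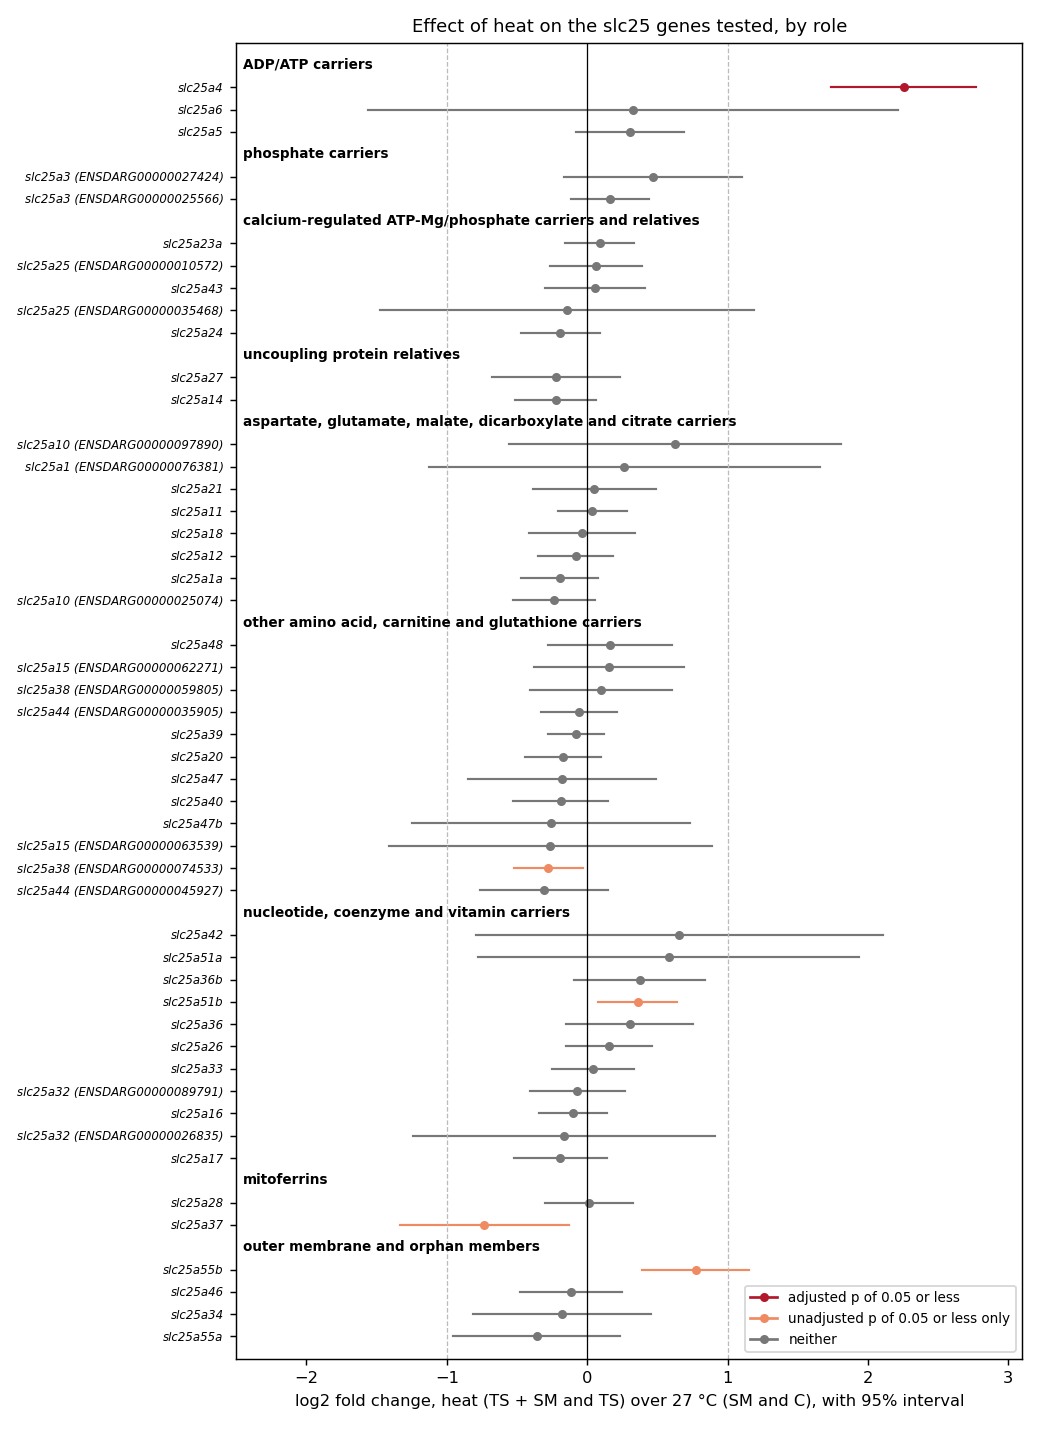
LFC for heat averaged over both media (horizontal axis, log2 scale, TS + SM and TS over SM and C) of 49 of the *slc25* genes tested, with 95% intervals, grouped by role. *slc25a4* at 2.25 is the point in dark red (*P*-adj of 0.05 or less), the 4 genes in orange have an unadjusted *P* up to 0.05, and wide intervals belong to genes with few counts such as *slc25a6*.

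In the single comparisons of heat, the counts of called members were small in each. In TS vs. C, 1 of 50 members was called, against 0.0963% of all genes, 2 (4%, against 4.45%) had an unadjusted *P* up to 0.05, and 5 members (10%) had groups that did not overlap, against 11.3%. In TS + SM vs. SM edgeR called 0 members, against 0.107% of all genes, with 3 (6%, against 6.01%) at an unadjusted *P* up to 0.05. DESeq2 called 1 member there, and 139 of all genes against 20 in edgeR. Again 5 members (10%) did not overlap, against 10.3%. In TS + SM vs. C, 1 member was called, against 0.171%, and 8 (16%) did not overlap, against 12.5%. The shares that did not overlap were thus close to those of all genes. The 5 members (10%, against 6.24%) with an unadjusted *P* up to 0.05 in TS + SM vs. C were *slc25a4*, *slc25a55b*, *slc25a37*, *slc25a3* (ENSDARG00000027424) and, named after its values were seen, the pyrimidine nucleotide carrier *slc25a36* (LFC 0.72, unadjusted *P* = 0.0314, *P*-adj = 0.705). The last had 74.3, 97.6 and 122 CPM in TS + SM and 67.0, 67.7 and 43.4 CPM in C, and its TS and SM pools ranged from 50.5 to 113 CPM, across both.

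**Figure D4:**
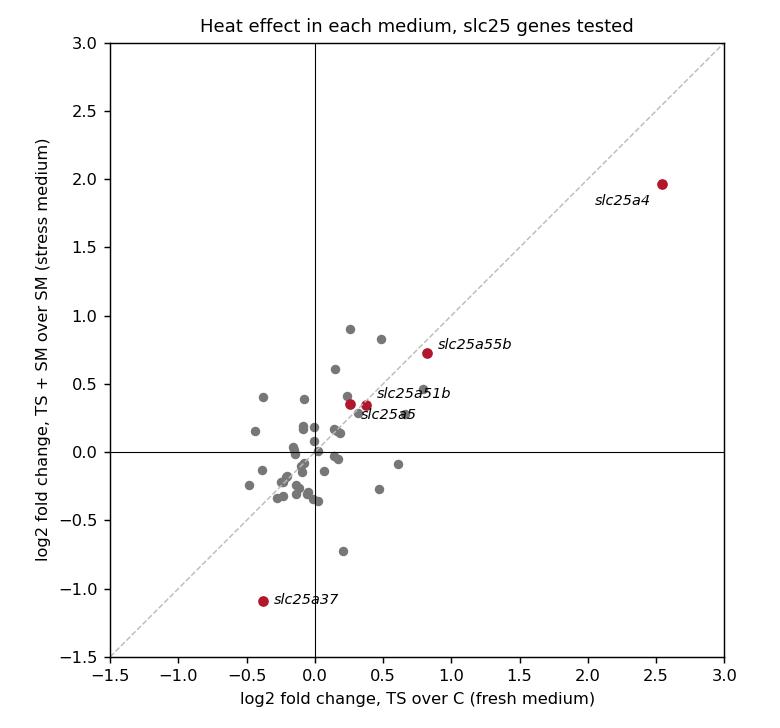
LFC of TS over C (horizontal axis) and of TS + SM over SM (vertical axis), both on the log2 scale, for the 50 *slc25* genes tested. Red points are the 5 labelled genes, the dashed line marks equal effects, and *slc25a4* at 2.54 and 1.97 and *slc25a55b* at 0.82 and 0.73 lie farthest to the upper right.

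Stress medium gave no call on any carrier. In SM vs. C, edgeR called 0 of 50 members (0% of all genes), 1 had an unadjusted *P* up to 0.05 (2%, against 2.12%), DESeq2 called 0 (1 of all genes), and 3 members (6%, against 7.37%) did not overlap. Among the members without overlap in SM vs. C were *slc25a38* (ENSDARG00000059805), with 3.90, 2.41 and 3.64 CPM in SM and 2.36, 1.97 and 1.96 CPM in C (LFC 0.66, 95% interval -0.06 to 1.38), and the NAD+ carrier gene *slc25a51a*, with 2 counts in each SM library and 6, 4 and 18 counts in C, the SM values being under the detection limit of 3 counts.

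For the named carriers the interval in SM vs. C shows how large a change could have been missed. It was -0.56 to 0.53 for *slc25a5*, -0.39 to 0.39 for *slc25a3* (ENSDARG00000025566), -0.29 to 0.40 for *slc25a38* (ENSDARG00000074533), -0.70 to 0.99 for *slc25a37* and -3.96 to 1.54 for *slc25a6*. Over the family it lay within ±1 for 31 of 50 members. In TS + SM vs. TS, edgeR and DESeq2 called 0 members, 0 had an unadjusted *P* up to 0.05 (1.45% of all genes), and 3 (6%, against 5.4%) did not overlap. For the interaction edgeR called 0 members (0% of all genes) and DESeq2 called 0 (2 of all genes), with 1 (2%, against 0.915%) at an unadjusted *P* up to 0.05 in edgeR. For SM averaged over both temperatures edgeR called 0 (0% of all genes) and DESeq2 called 0 (1 of all genes). In edgeR 2 members (4%, against 3.82%) had an unadjusted *P* up to 0.05, *slc25a51a* (unadjusted *P* = 0.0375, *P*-adj = 0.802) and *slc25a10* (ENSDARG00000025074, LFC 0.30, *P*-adj = 0.802), while 0 (against 0.123%) did not overlap.

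The spread between pools of 1 treatment varied widely among the carriers. The coefficient of variation within treatments had a median of 18.7% over the 50 members and 21.5% over all genes tested, and its extremes were 7.51% for *slc25a39* and 101% for *slc25a6*. It was not set by the level alone, at 36.4% for *slc25a55a* with a mean of 549 CPM and 18.6% for *slc25a44* (ENSDARG00000045927) with 1.84 CPM. TS replicate 3 was the highest of the 12 libraries for 13 members (26%, against 20.9% of all genes), among them 7 of the 13 members with a mean under 2 CPM. The citrate carrier *slc25a1* (ENSDARG00000076381) shows this pattern, with 0.381, 0.823 and 3.09 CPM in TS + SM, 0.889, 0.864 and 6.96 CPM in TS, 1.28, 1.79 and 1.41 CPM in SM, and 0.646, 1.82 and 3.29 CPM in C. Its pools within TS lay farther apart than any treatment means. The folate carrier gene *slc25a32* (ENSDARG00000026835) was likewise highest in TS replicate 3 and C replicate 3, with 3.35 and 3.18 CPM against 0.314 to 1.70 CPM in the other 10 libraries. TS replicate 3 also held the highest *slc25a4* level, and without it the heat call on *slc25a4* remained, as it did without any other library.

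**Figure D5:**
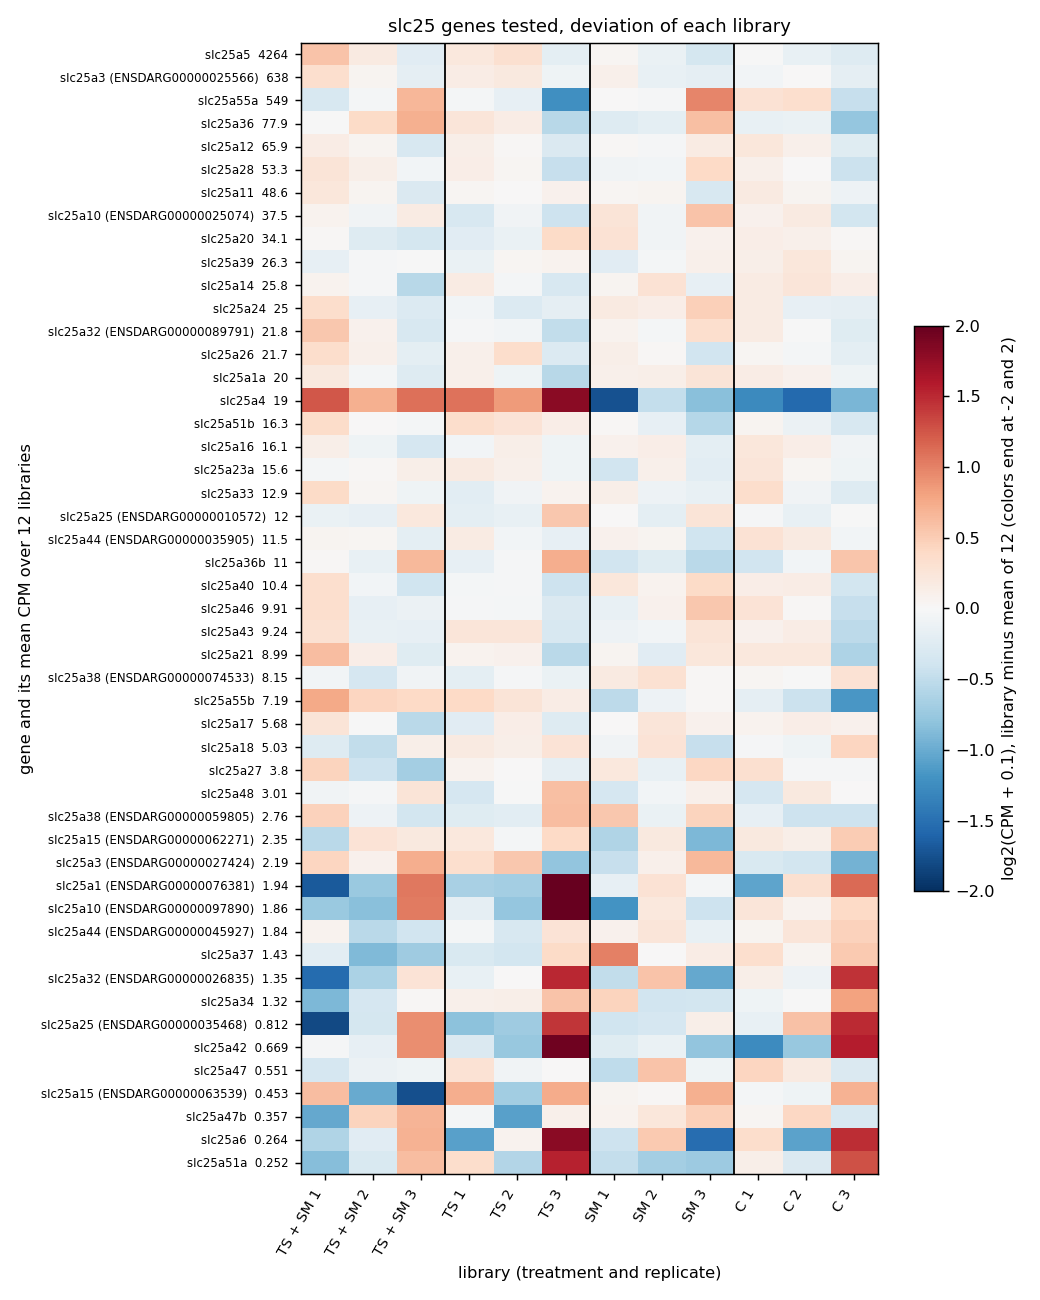
Each row is 1 of 49 *slc25* genes tested, ordered by its mean CPM (printed beside its name), and each column 1 pool. Color gives log2(CPM + 0.1) of the pool minus the mean of the 12 pools, from blue (lower) to red (higher). The row of *slc25a4* is red in the 6 heated pools and blue in the 6 others, and the sparse genes at the bottom are red mainly in TS replicate 3 and C replicate 3.

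For 18 of the 59 gene IDs the name table gives 1 symbol to 2 IDs, as for *slc25a3* and *slc25a38*, so they are told apart here by ID alone. STAR leaves multimapping pairs (4.51% to 10.4% of a library) out of its gene counts, and the levels of close paralogs are uncertain for that reason. The 9 members that were not tested had 3 to 65 counts summed over the 12 libraries. They were *slc25a13*, the aspartate/glutamate carrier called citrin (11 counts), the glutamate carriers *slc25a22a* (58) and *slc25a22b* (6), *slc25a23* (40) and *slc25a24l* (16) of the ATP-Mg/phosphate group, both gene IDs of the basic amino acid carrier *slc25a29* (65 and 34), a second ID of *slc25a1* (3) and *slc25a35* (34). For *slc25a35* 67.3% and for *slc25a13* 56.0% of the reads lay on the opposite strand, so even these few counts are uncertain.

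Genes that work beside the carriers were read from lists matched by symbol. For heat, 0.851% of all genes were called and 9.36% had an unadjusted *P* up to 0.05, in either direction. Of 18 genes for carrier import (receptors and small chaperones of the import machinery and the TIM22 complex, which inserts carriers into the inner membrane) edgeR called 0 for heat, 0 had an unadjusted *P* up to 0.05, 15 had an LFC below 0, and the median was -0.13. Of 24 other transporters of the mitochondrial membranes, such as the porins and the calcium uniporter, 0 were called (median 0.11, 3 at an unadjusted *P* up to 0.05), and of 10 enzymes of the malate-aspartate and citrate shuttles 0 were called (median 0.14, 1 at an unadjusted *P* up to 0.05). The creatine kinases gave 1 call of 5, *ckmt2*, the mitochondrial creatine kinase of striated muscle (LFC 0.97, *P*-adj = 0.0342). Their median was 0.74, and 4 of the 5 were higher at an unadjusted *P* up to 0.05. Their summed level was 1391 to 2427 CPM in TS + SM, 1637 to 3189 CPM in TS, 999 to 1227 CPM in SM and 1193 to 1621 CPM in C. Fast-muscle markers were higher with heat too, and pools were not matched for stage. The part of either in the creatine kinase levels was not tested. Among 12 regulators of mitochondrial biogenesis 1 fell, *pprc1*, a coactivator of the PGC-1 family (LFC -0.48, *P*-adj = 0.0128), with a median of -0.09 over the list and 2 lower at an unadjusted *P* up to 0.05.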

How the data were processed

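RNA was sequenced from 12 pools of 20 whole embryos, 3 per treatment, and samples were grouped by their treatment labels. The authors trimmed read pairs with fastp 0.23.1, aligned them to GRCz11 with STAR 2.6.1 and deposited STAR's raw counts per gene, not normalized. Each file holds 3 count columns. The stranded column 4 was used, as the library kit keeps strand, and 2.61% to 3.45% of the stranded counts lay in the opposite column. Pairs without a gene (9.42% to 12.2%), ambiguous (0.799% to 1.03%), multimapping (4.51% to 10.4%) and unmapped (3.14% to 4.63%) pairs stayed out of library sizes and tests. Symbols came from a name table covering 29201 IDs.

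Counts were fitted in R 4.3.3 with edgeR 4.0.16 (TMM, filterByExpr by treatment, robust quasi-likelihood dispersions with statmod 1.5.0), all 12 libraries and the 4 treatments in a single fit, with two-sided F tests for 8 comparisons, Benjamini-Hochberg adjustment over 18688 genes and a threshold of 0.05. The SE of an LFC is its size over the square root of F. With 3 pools against 3, an exact permutation test cannot go below 0.1. Pools are separate groups of embryos, and *P* values cover the spread between them. The paper describes mixing the medium of donors before giving it to receivers. It does not say how many batches of medium the SM and TS + SM pools received. Spread between batches of stress medium may therefore not be covered in comparisons of medium. In the sample titles, the RNA numbers of replicate 3 lie apart from those of replicates 1 and 2 in every treatment. What these numbers stand for is not stated, and any part of it in the spread was not tested. No 2 replicates agreed within counting noise (chi-square per degree of freedom 4.62 to 173), and each library was counted as a separate sample. The lowest value was that of TS replicates 1 and 2, and the next was 19.2 for SM replicates 1 and 2. A value above counting noise cannot show that pools are independent, since separate preparations of the same material would also exceed it. A level of 3 counts was taken as the limit of detection. The scripts were tested on simulated data.

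Named genes are members with *P*-adj of 0.05 or less or unadjusted *P* of 0.01 or less in a comparison, the ADP/ATP, phosphate and heme-related carriers whatever their values, and the highest and lowest heat LFC of each role group. Others fall outside these rules and should be read as named after their values were seen, including where this is not stated. Among the genes tested these are *slc25a51b*, *slc25a36*, *slc25a11*, *slc25a12*, *slc25a20*, *slc25a39*, *slc25a46*, *slc25a51a*, *slc25a1* (ENSDARG00000076381) and *slc25a32* (ENSDARG00000026835). The values of 1 gene are not reported here. The members, lists and tests were chosen with earlier results of these data known. Alternatives were DESeq2 1.42.0 (treatment as single factor, Cook's filter off), its size factors in edgeR, no filter on low counts, a replicate block, the unstranded column, thinning to the smallest library, only the libraries compared, and each library left out. Same-numbered libraries deviated together in TS with C (r 0.294 to 0.786) and TS + SM with C (0.106 to 0.619), which were taken as paired. In TS + SM with TS (0.0608 to 0.556) and TS + SM with SM (0.0239 to 0.498) r was also above 0. These were not taken as paired, so the split is not sharp. TS with SM and SM with C had r of both signs. The main fit held no replicate term, so its *P* values take no account of pairing.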

Additional observations from a re-analysis of the deposited data

How the results depend on the processing

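The heat call on *slc25a4* averaged over both media held in every alternative run for it, with *P*-adj up to 0.00742. The setting with only the libraries compared was not among these, as this comparison uses all 12 libraries. Counts of members called changed as follows. DESeq2 called 1 member in TS + SM vs. SM, 2 in TS + SM vs. C and 2 for heat averaged over both media, against 0, 1 and 1. Over all genes, DESeq2 called 139, 176 and 445 in these comparisons, against 20, 32 and 159 in the main fit. Without a filter on low counts, and with the replicate block, edgeR called 1 in TS + SM vs. SM, *slc25a4* with *P*-adj = 0.0399 and 0.0416. These 2 settings called 26 and 36 of all genes there, against 20 in the main fit. The libraries of TS + SM and SM were not taken as paired. In the paired comparisons, TS vs. C and TS + SM vs. C, the block changed no call on the members. With only the libraries compared, 0 were called in TS vs. C and 0 in TS + SM vs. C. Of all genes, that setting called 0 and 2 in these comparisons, against 18 and 32 in the main fit. With a library left out, the count ran from 0 to 1 in TS vs. C, 0 to 1 in TS + SM vs. C, 0 to 1 in TS + SM vs. SM (1 without TS replicate 3) and 1 to 1 for heat averaged over both media. Over all genes these counts ran from 7 to 18, 5 to 36, 2 to 30 and 72 to 172. The cause was not tested.

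Of 48 named gene and comparison pairs, 2 turned direction in a setting that kept all libraries. The *slc25a3* (ENSDARG00000025566) LFC in SM vs. C became -0.00164 with the replicate block and -0.00487 after thinning, and the *slc25a28* LFC for heat became -0.000139 with the block. With a library left out 11 pairs turned direction, none of them called. For heat, the LFCs ran from -0.057 to 0.11 (*slc25a28*), -0.064 to 0.19 (*slc25a38*, ENSDARG00000059805), -0.55 to 1.02 (*slc25a6*), -0.11 to 0.84 (*slc25a10*, ENSDARG00000097890) and -0.10 to 1.53 (*slc25a42*). *slc25a6* ran from -1.54 to 1.34 in TS vs. C and from -0.31 to 1.81 in TS + SM vs. SM. In SM vs. C the range was -0.090 to 0.059 for *slc25a3* (ENSDARG00000025566), -0.25 to 0.34 for *slc25a37*, -0.0086 to 0.15 for *slc25a38* (ENSDARG00000074533) and -0.11 to 0.088 for *slc25a5*. Over all pairs, 845 of 884 alternative values kept direction and side of the threshold. Apart from *slc25a4* for heat, in TS vs. C and in TS + SM vs. C, these pairs were uncalled in the main fit. For them it means only that the sign held and no call arose. Fits without a library outside the comparison were counted too, so this share is no measure of how firm the calls were. Few counts limit *slc25a6*, *slc25a42* and the other members under 2 CPM.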
